A study of Mus musculus with 12 samples.

Results

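Amino acid uptake and its sensing were examined through 7 genes in mouse antibody-secreting cells (ASCs), which comprise dividing plasmablasts and mature plasma cells. The genes were the amino acid transporters Slc7a5, Slc3a2, Slc1a5, Slc38a2 and Slc38a10 and the sestrins Sesn1 and Sesn3, chosen by symbol from the 32285 genes measured. They were read in 8715 of 39949 barcodes. A barcode was kept as an ASC when it held at least 1000 unique molecular identifiers (UMIs) outside genes starting Igh, Igk or Igl and when its leading light-chain V gene took at least 50% of its light-chain V UMIs. The single-cell 5' libraries came from bone marrow, spleen and thymus of 3-month-old female and male Prdm1-eYFP mice on the C57BL/6 background, with 1 gene expression library per sex and tissue. All groups carried the reporter, in which Prdm1 regulatory sequence drives the yellow fluorescent protein eYFP, and each sort pooled 3 mice. The gate was B220 positive or negative, CD138 high, IgD negative, CD90.2 negative and eYFP positive. Whether the 3 tissue pools of each sex were taken from shared mice is not given in the labels, and with shared mice the effects of sex and of pool cannot be told apart. The p-values for sex and tissue measure the spread between these 6 libraries, estimated with information shared between genes. Those for cycling state and antibody class measure the spread of differences within a library. As each library is 1 pool, none of them measures the spread between mice.

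A plasma cell builds large amounts of antibody and depends on imported amino acids. Slc3a2 encodes CD98 heavy chain, which carries light chains such as the leucine importer LAT1, encoded by Slc7a5, to the cell surface, and CD98 is needed in B cells for a normal antibody response. Slc1a5 encodes the glutamine exchanger ASCT2, Slc38a2 encodes the sodium-coupled neutral amino acid transporter SNAT2, and Slc38a10 belongs to the same family. Sestrins restrain the growth kinase complex mTORC1 when amino acids are scarce, and Sesn1 and Sesn3 are known targets of p53 and FoxO factors.

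The 7 genes lie on 7 chromosomes of GRCm38, the build named in the submitters' processing notes, with positions from GENCODE M21, and all are protein-coding. Slc1a5 (ENSMUSG00000001918) lies at chr7:16781340-16798274 on the plus strand and Slc7a5 (ENSMUSG00000040010) at chr8:121881150-121907694 on the minus strand. Slc38a10 (ENSMUSG00000061306) lies at chr11:120103960-120151346, Slc38a2 (ENSMUSG00000022462) at chr15:96687392-96699730 and Slc3a2 (ENSMUSG00000010095) at chr19:8706882-8723369, all on the minus strand. Sesn1 (ENSMUSG00000038332) lies at chr10:41809935-41908424 and Sesn3 (ENSMUSG00000032009) at chr9:14275067-14333101, both on the plus strand.

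Upstream sequences from RefSeq (GRCm38.p6) were matched for 5 of the 7 genes, with 6 start sites, and the 250 bases before each start were searched on both strands. By the gene spans above, the windows of Sesn3, Slc3a2 and both starts of Sesn1 lie inside the gene, downstream of its outermost annotated start. The windows printed are those of the second start of Sesn1 and of Slc38a10, of which the first was called lower and the second higher in IgG than in IgM cells below, and of Sesn3, the paralog of Sesn1. Capitals mark the CCAAT box, read here as CCAAT or as ATTGG on the other strand, and each sequence runs 5' to 3' on its gene's strand.
Sesn1, chr10:41887189-41887438, plus strand: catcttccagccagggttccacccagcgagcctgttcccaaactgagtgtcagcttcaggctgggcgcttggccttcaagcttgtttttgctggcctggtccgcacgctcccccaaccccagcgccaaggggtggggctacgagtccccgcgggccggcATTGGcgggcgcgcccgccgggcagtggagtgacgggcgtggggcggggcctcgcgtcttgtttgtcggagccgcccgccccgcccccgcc
Slc38a10, chr11:120151352-120151601, minus strand: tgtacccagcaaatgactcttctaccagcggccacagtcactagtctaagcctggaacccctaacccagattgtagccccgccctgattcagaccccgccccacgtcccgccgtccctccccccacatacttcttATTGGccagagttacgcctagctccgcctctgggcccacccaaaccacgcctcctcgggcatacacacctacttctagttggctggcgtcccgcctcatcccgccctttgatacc
Sesn3, chr9:14276051-14276300, plus strand: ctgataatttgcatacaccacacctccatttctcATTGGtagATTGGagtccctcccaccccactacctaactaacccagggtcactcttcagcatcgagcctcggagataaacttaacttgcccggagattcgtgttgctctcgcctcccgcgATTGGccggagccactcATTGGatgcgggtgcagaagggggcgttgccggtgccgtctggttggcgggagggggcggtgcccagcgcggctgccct
Sesn3 held 4 CCAAT boxes, each start of Sesn1 and that of Slc38a10 held 1, and the windows of Slc38a2 and Slc3a2 held none. A CCAAT box was found in 33.8% of the 32851 promoter windows of this length. The core of the amino acid response element that ATF4 binds (TGATGNAA, in 3.45% of windows), the XBP1 core (TGACGTG, 1.65%), the E-box (CACGTG, 6.02%, which overlaps the XBP1 core in its letters) and the FoxO site (TGTTTAC, 3.17%) did not occur in the 6 windows.

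The kept cells numbered 1238 in female and 1665 in male bone marrow, 3567 in female and 1850 in male spleen, and 107 in female and 288 in male thymus. Their median depth was 2035 to 4352 UMIs outside immunoglobulin genes, with 264621 UMIs in all in female thymus and 21287170 in female spleen. Levels are given as counts per 1000000 UMIs outside immunoglobulin genes (CPM), and since a 5' UMI counts a molecule once, no length correction was applied. The ASC markers Xbp1 (3074 to 3707 CPM), Prdm1 (840.4 to 1068 CPM), Sdc1 and Tnfrsf17 were present in all 6 libraries. The 7 B cell markers summed to 149.5 to 229 CPM and the 8 T cell markers to 5.80 to 75.6 CPM, highest in female thymus, with Thy1 at 0 in all libraries. The gate itself selected for Prdm1 (eYFP) and Sdc1 (CD138) and against Thy1 (CD90.2), and sums over a library do not show the identity of each barcode. The 8 macrophage markers summed to 66.4 to 246 CPM, highest in female spleen. Neutrophil markers summed to 514 CPM in female and 1414.5 CPM in male bone marrow and to at most 0.141 CPM elsewhere. Across the filtered lists, 1008 barcodes occurred in 2 or more libraries, and these made up 3.64% to 7.92% of kept cells in bone marrow and spleen but 29.9% in female and 20.5% in male thymus. The share of kept cells with at least 10% of their UMIs from ribosomal protein genes was 32.6% and 34.1% in the bone marrow of females and males, 50.5% and 18.2% in female and male spleen, and 14.0% and 22.2% in female and male thymus.

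Slc3a2 was higher in the male than in the female library of each tissue, and so was its partner Slc7a5. Slc3a2 stood at 1035 CPM in female and 1780.2 CPM in male bone marrow, 1008 and 2077 CPM in female and male spleen, and 820.0 and 1479 CPM in female and male thymus. The male value was thus 1.72, 2.06 and 1.80 times the female one, and the male and female libraries did not overlap. How many of all genes separate the sexes in this way was not counted. Slc7a5 stood at 113 and 223 CPM in the bone marrow of females and males, 92.6 and 217 CPM in their spleens, and 166 and 204 CPM in their thymuses. Its male values were 1.97, 2.34 and 1.22 times the female ones, and the Poisson intervals of the thymus libraries overlapped (121 to 223 CPM and 179 to 231 CPM). Over the 3 pairs the fitted male versus female difference was 0.75 for Slc3a2 (log2, SE 0.36, adjusted p = 0.4931) and 0.71 for Slc7a5 (SE 0.27, adjusted p = 0.357). None of the 7 genes passed the threshold of 0.05 by edgeR's quasi-likelihood test after Benjamini-Hochberg adjustment, against 0.427% of all genes tested. At an unadjusted p under 0.05 there were 2, where 10% of all genes were, and DESeq2 called 0.

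**Figure D1:**
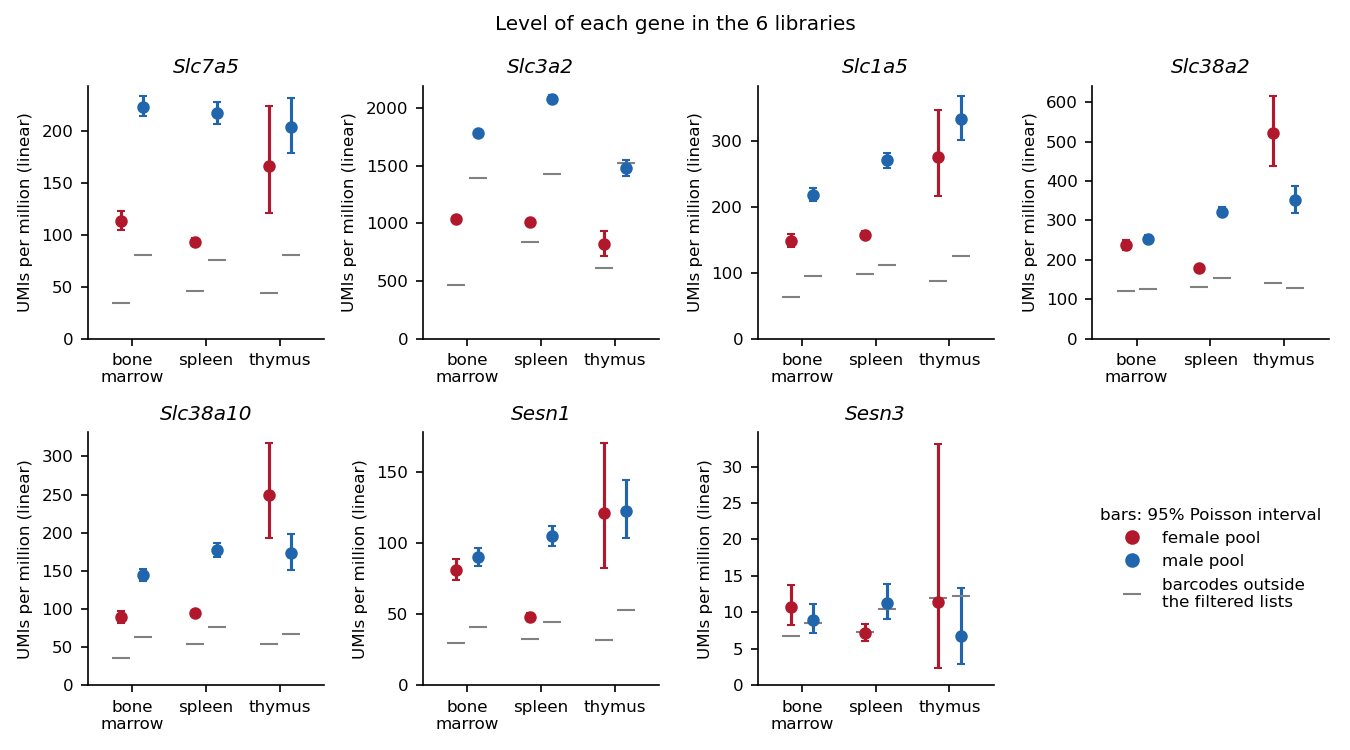
Level of each of the 7 genes (CPM, linear axis from 0) in the 6 libraries, with female pools in red, male pools in blue, exact 95% Poisson intervals as bars and the level in barcodes outside the filtered lists as grey ticks. Slc3a2 and Slc7a5 lie higher in the male pool of each tissue, and the levels of Sesn3 lie near the grey ticks.

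The glutamine exchanger gene Slc1a5 also had its higher value in the male library of each tissue, at 148 and 218 CPM in the bone marrow of females and males, 157 and 269.9 CPM in their spleens, and 276 and 333 CPM in their thymuses. Slc38a2 did not keep one direction between the sexes, at 238 and 253 CPM in bone marrow, 179 and 322 CPM in their spleens, and 522 and 352 CPM in their thymuses for females and males. Slc38a10 gave 89.0 and 144 CPM in bone marrow, 94.6 and 177 CPM in their spleens, and 249 and 173 CPM in their thymuses. For Slc38a2 and Slc38a10 the female library was thus the lower one in bone marrow and spleen and the higher one in thymus. Sesn1 gave 81.1 and 90.1 CPM in the bone marrow of females and males, 48.0 and 105 CPM in their spleens, and 121 and 123 CPM in their thymuses. The highest and lowest Sesn1 libraries were thus male thymus and female spleen. Sesn3 was read in only 3 to 152 UMIs per library (6.73 to 11.3 CPM), against 6.68 to 12.2 CPM in barcodes outside the filtered lists.

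Between tissues, none of the 7 genes passed the threshold. The thymus versus bone marrow difference was 0.58 for Slc38a10 (log2, SE 0.34, adjusted p = 0.642), 0.53 for Slc38a2 (SE 0.36, adjusted p = 0.709) and -0.58 for Slc3a2 (SE 0.44, adjusted p = 0.748). The share of all genes called was 0.765% for thymus versus bone marrow, 0.632% for thymus versus spleen and 0.436% for spleen versus bone marrow. At an unadjusted p under 0.05, and by DESeq2, 0 of the 7 were called in these 3 comparisons, where 8.73%, 9.19% and 4.65% of all genes were under that unadjusted p. The 95% intervals of the thymus versus spleen difference ran from -1.60 to 0.23 for Slc3a2 and from -0.22 to 1.28 for Slc38a2, so a difference of 2-fold in one direction lay inside each. Slc1a5 had its highest libraries in thymus, at 276 and 333 CPM, above the 157 and 269.9 CPM of spleen, and its bone marrow and spleen libraries overlapped. The thymus libraries were also the highest for Slc38a2 (352 and 522 CPM, at most 322 CPM elsewhere) and Sesn1 (121 and 123 CPM, at most 105 CPM elsewhere). How many of all genes share this order was not counted. For Slc3a2 the libraries of the 3 tissues overlapped.

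Cells were also split by their ribosomal protein share, which by itself lowers the CPM of other genes in high-ribosomal cells, since ribosomal protein UMIs are part of the total. In cells with under 10% ribosomal protein UMIs, Slc7a5 stood at 188 to 359.9 CPM, against 59.8 to 138 CPM in cells with at least 10%. Sesn1 stood at 116 to 217 CPM in the former and, in the 5 libraries other than female thymus, at 24.6 to 31.8 CPM in the latter, while the 15 such cells of female thymus held 0 Sesn1 UMIs (exact upper bound 56.8 CPM). Sesn1, Slc7a5, Slc1a5, Slc38a2, Slc38a10 and Sesn3 were higher in the low-ribosomal cells of 6 of 6 libraries, with median ratios of 5.48, 2.73, 1.93, 3.13, 3.01 and 3.27. Slc3a2 was higher there in 5 of 6 libraries, with a median ratio of 1.22. Over the 5929 other genes with a mean of at least 20 CPM, the median of this ratio was 1.61 (quartiles 0.908 and 2.67), so Slc1a5 lay near it and Slc3a2 below it. With ribosomal protein genes left out of the total, the ratio was 4.65 for Sesn1, 2.31 for Slc7a5, 1.63 for Slc1a5, 2.68 for Slc38a2, 2.55 for Slc38a10 and 2.90 for Sesn3, against a median of 1.37 over other genes. Slc3a2 then stood at 1.03 and was higher in 3 of 6 libraries. Ratios were taken with 1 CPM added to both levels. This split was not tested, and the fit in the low-ribosomal cells below was added after the data were seen.

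Read within these strata, the higher male levels of Slc3a2 and Slc7a5 passed the threshold in each. Among cells with at least 10% ribosomal protein UMIs, the male excess was 0.88 for Slc7a5 (log2, SE 0.13, adjusted p = 6.37e-10), 0.76 for Slc3a2 (SE 0.20, adjusted p = 0.00703), 0.42 for Slc1a5 (SE 0.12, adjusted p = 0.0164) and 0.39 for Slc38a10 (SE 0.13, adjusted p = 0.0489), all by edgeR. That is 4 of 7 genes where 4.7% of all genes were called. Among cells with under 10%, the male excess was 0.73 for Slc3a2 (SE 0.15, adjusted p = 0.00214) and 0.57 for Slc7a5 (SE 0.14, adjusted p = 0.0119), 2 of 7 where 4.23% of all genes were called. In these low-ribosomal cells Slc3a2 was also lower in thymus than in spleen by a log2 difference of -0.83 (SE 0.19, adjusted p = 0.0044), the only one of the 7 called there, where 4.47% of all genes were. The thymus arm of the high-ribosomal fit rests on 15 female and 64 male cells. Neither fit held antibody class as a term.

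Cycling cells, those with a UMI of Mki67 or Top2a, held less Slc3a2, Sesn1 and Slc7a5 than the other cells of the same library. There were 3287 cycling and 5428 non-cycling cells. Slc3a2 stood in non-cycling cells at 1188 CPM in female and 1916 CPM in male bone marrow, 1275 and 2458 CPM in female and male spleen, and 866 and 1696 CPM in female and male thymus. In cycling cells the same libraries gave 785, 1556, 755, 1663, 733 and 1027 CPM. Every library was lower in its cycling cells, and the female libraries were below the male ones of their tissue in each state. Slc3a2 fell by 0.62 on the log2 scale (SE 0.09, adjusted p = 2.07e-06, edgeR's quasi-likelihood test with the library as a term), or 1.54-fold.

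Sesn1 stood in non-cycling cells at 92.8, 100.3, 60.7, 120.2, 139 and 156 CPM in the libraries of the same order, and in cycling cells at 62.1, 73.3, 36.0, 87.7, 87.5 and 54.3 CPM. It was lower in cycling cells in 6 of 6 libraries and fell by 0.66 on the log2 scale (SE 0.08, adjusted p = 1.46e-07). Slc7a5 gave 127, 229, 107, 243, 185 and 214 CPM in non-cycling and 91.7, 213, 78.8, 188, 131 and 181 CPM in cycling cells. It was also lower in 6 of 6 libraries and fell by 0.38 (SE 0.07, adjusted p = 5.64e-05). These 3 of 7 genes were called where 23.9% of all genes tested were. The Slc7a5 call was lost when each cell was first thinned to 1000 UMIs, with a difference of -0.06 (adjusted p = 0.801), while Slc3a2 (-0.46) and Sesn1 (-0.46) kept theirs.

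**Figure D2:**
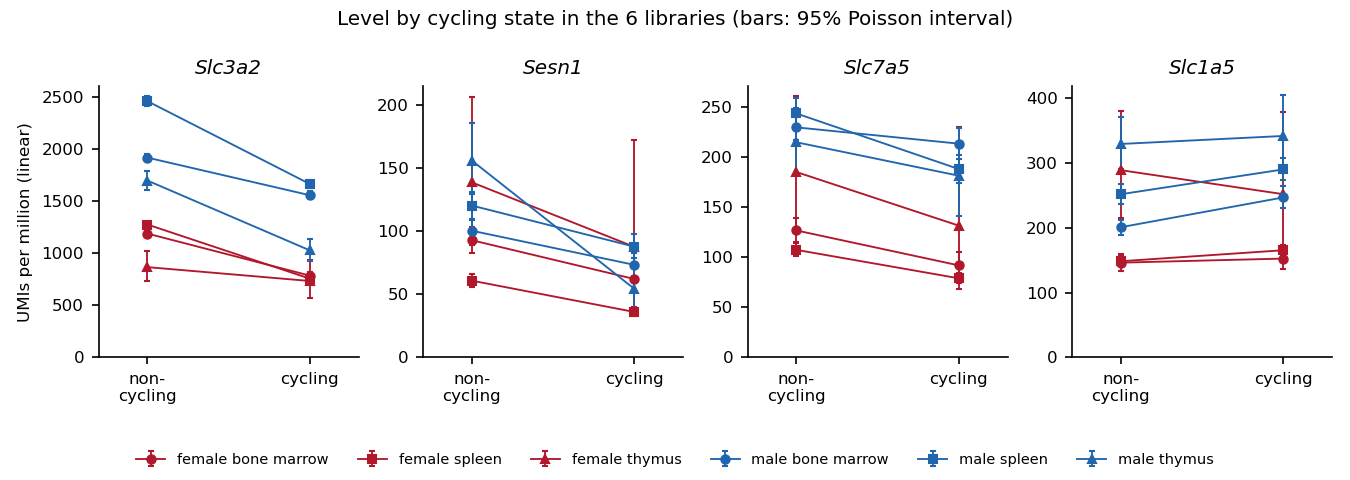
Level (CPM, linear axis from 0) of 4 of the genes in non-cycling and cycling cells of each library, joined by a line, with female libraries in red, male in blue, symbols for tissue and exact 95% Poisson intervals as bars. The lines of Slc3a2, Sesn1 and Slc7a5 fall in 6 of 6 libraries, and those of Slc1a5 rise in 5 of 6.

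The other 4 genes did not pass the threshold between cycling and non-cycling cells. Slc1a5 differed by 0.11 (log2, 95% interval -0.02 to 0.25), Slc38a10 by 0.13 (0.0016 to 0.26), Slc38a2 by -0.13 (-0.26 to 0.0011) and Sesn3 by 0.17 (-0.14 to 0.49). When cells with at least 2 UMIs of Mki67 and Top2a were set against cells with none, 5 of 7 genes were called, where 36.2% of all genes were, with Slc3a2 at -1.26, Sesn1 at -1.04 and Slc7a5 at -0.67, and with Slc38a10 (0.27) and Slc38a2 (-0.25) added. Cycling cells were deeper, with a median of 5629 against 3687 UMIs in female spleen and 2074 against 1991 in female thymus. Neutrophil markers summed to 1189.8 and 3585 CPM in the cycling cells of female and male bone marrow, against 100.4 and 98.5 CPM in their non-cycling cells, and to at most 0.242 CPM in either state of the other 4 libraries. In those 4 libraries Slc3a2, Sesn1 and Slc7a5 were each lower in cycling cells. The part of the neutrophil markers in the cycling differences was not tested.

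Whether the cycling difference itself differed between tissues was tested as an interaction, and none of the 7 genes passed. The share of all genes called was 0% for thymus versus bone marrow, 0.00929% for thymus versus spleen and 0.111% for spleen versus bone marrow. Sesn1 was the gene with the smallest unadjusted p, with an additional difference of -0.87 in thymus against bone marrow (log2, SE 0.31, adjusted p = 0.831) and of -0.82 against spleen (SE 0.31, adjusted p = 0.799). It was the 1 gene of the 7 with an unadjusted p under 0.05 in each of those contrasts, where 5.46% and 6.1% of all genes were, against 0 of the 7 and 3.12% of all genes for spleen versus bone marrow, and DESeq2 called 0 in all 3.

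Cells were classed by their leading heavy constant gene into 7085 IgM, 491 IgA and 1130 IgG cells, and the classes were compared among non-cycling cells of the same library. Slc3a2 was lower in class-switched cells. In IgM cells it stood at 1304 CPM in female and 1983 CPM in male bone marrow, 1508 and 2661 CPM in female and male spleen, and 1079.5 and 2019 CPM in female and male thymus. In IgA cells it stood at 659 and 987 CPM in the bone marrow of females and males, 676 and 923 CPM in female and male spleen, and 719.9 CPM in male thymus. In IgG cells these 5 libraries gave 448, 664, 532, 992 and 723 CPM. The IgM libraries overlapped neither the IgA nor the IgG ones, and how many of all genes do the same was not counted. Within a library the IgG value was 2.68 to 2.98 times lower than the IgM value.

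In the fit, Slc3a2 was lower in IgG than in IgM cells by a log2 difference of -1.52 (SE 0.12, adjusted p = 1.61e-14), or 2.87-fold, and lower in IgA than in IgM cells by -1.23 (SE 0.12, adjusted p = 6.54e-11), or 2.34-fold. The IgG versus IgA difference of -0.29 (95% interval -0.56 to -0.03, adjusted p = 0.176) did not pass. It passed in 3 of 21 alternatives, at -0.45 for Slc3a2 with at least 2000 UMIs a cell, -0.52 with an 80% limit on the leading light-chain V gene and -0.53 in high-ribosomal cells of both cycling states. Sums of under 20 cells were left out, so female thymus entered with IgM cells only, and the IgA sums of male spleen and male thymus rest on 20 and 21 cells. Slc3a2 was the only one of the 6 genes tested that was called between IgA and IgM, where 8.95% of all genes were called. Sesn3 had too few UMIs to be tested between classes in this fit, and in the 5 alternatives that did test it, 0 calls were made.

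**Figure D3:**
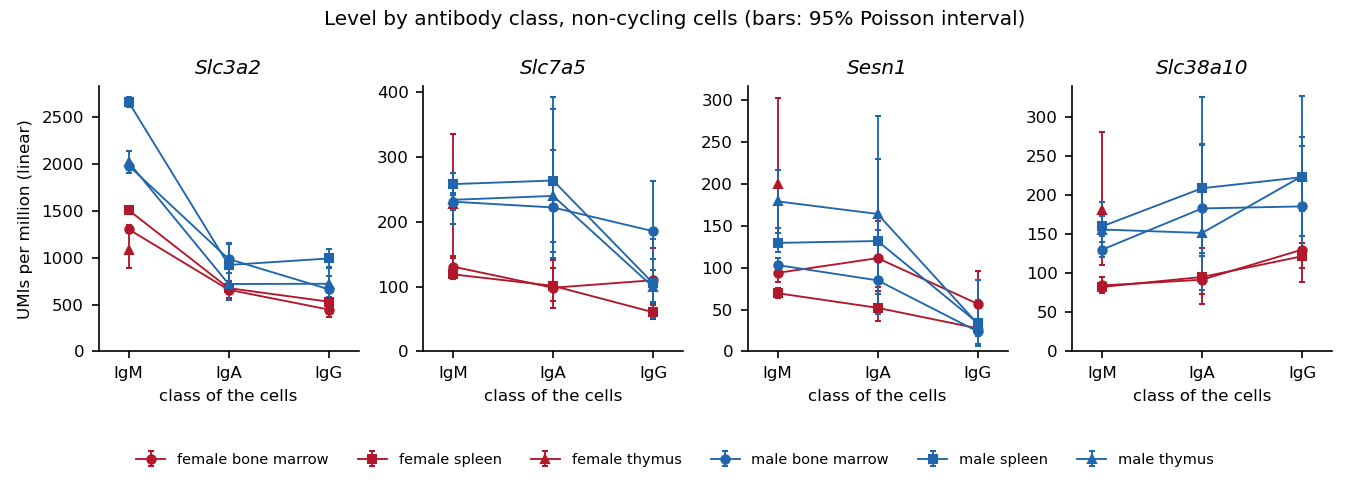
Level (CPM, linear axis from 0) of Slc3a2, Slc7a5, Sesn1 and Slc38a10 in non-cycling IgM, IgA and IgG cells, one line per library, with female libraries in red, male in blue, symbols for tissue and exact 95% Poisson intervals as bars. Slc3a2 drops from IgM to IgA, Sesn1 drops from IgA to IgG, and Slc38a10 is higher in IgG than in IgM cells in 5 of 5 libraries.

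Sesn1 was lower in IgG cells than in both other classes, and its IgA and IgM libraries overlapped. In IgM cells Sesn1 stood at 93.8 and 103 CPM in the bone marrow of females and males, 69.6 and 129.6 CPM in female and male spleen, and 199.6 and 179 CPM in female and male thymus. In IgA cells it stood at 111, 84.9, 52.1, 132 and 164 CPM in the 5 libraries without female thymus, and in IgG cells at 57.0, 23.9, 27.6, 34.3 and 33.2 CPM, from 4 to 52 UMIs a library. The IgG libraries did not overlap the IgM ones, which was likewise not counted over all genes. Sesn1 was lower in IgG than in IgM cells by a log2 difference of -1.49 (SE 0.17, adjusted p = 1.12e-09), or 2.81-fold (-0.75 with the 80% light-chain limit and -0.86 in high-ribosomal cells of both cycling states, both called), and lower in IgG than in IgA cells by -1.33 (SE 0.23, adjusted p = 3.65e-05). The second call was lost with the leading light-chain V gene required to hold 80% of its UMIs and in high-ribosomal cells of both cycling states (adjusted p up to 0.116). Over all 21 alternatives the log2 difference between IgG and IgA cells lay between -1.67 and -1.05. The IgA versus IgM difference was -0.16 (95% interval -0.49 to 0.17, adjusted p = 0.652). Within cells under 10% ribosomal protein UMIs that difference was -0.83 (SE 0.20, adjusted p = 0.0102).

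Slc7a5 was lower in IgG cells than in either other class. It stood in IgM cells at 131 and 231 CPM in the bone marrow of females and males, 119 and 258 CPM in female and male spleen, and 227 and 234 CPM in female and male thymus. In IgA cells it stood at 98.3, 222, 101, 264 and 240.0 CPM in the 5 libraries without female thymus. In IgG cells these libraries gave 109.9, 186, 60.6, 105 and 99.7 CPM, each below the IgM cells of its library although the groups overlapped. The log2 difference was -0.87 (SE 0.13, adjusted p = 8.96e-07) from IgM and -0.68 (SE 0.17, adjusted p = 0.00567) from IgA, lower in 4 of 5 libraries. The second call was lost in 6 of 21 alternatives. Slc7a5 then stood at -0.67 without female spleen, -0.55 without male spleen, -0.57 with an 80% limit on the leading light-chain V gene and -0.21 with an 80% limit on the leading heavy constant gene. It stood at -0.33 in cells under 10% ribosomal protein UMIs and at -0.48 in high-ribosomal cells of both cycling states, with an adjusted p of up to 0.716 over these alternatives.

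Slc38a10 went the other way. It stood in IgM cells at 84.4 and 130.3 CPM in the bone marrow of females and males, 82.6 and 160.0 CPM in female and male spleen, and 181 and 156 CPM in female and male thymus. In IgG cells it stood at 130.2, 186, 122, 223 and 224 CPM in the 5 libraries. Each was higher than the IgM cells of its library, by 1.39 to 1.54 times, and the log2 difference was 0.53 (SE 0.11, adjusted p = 0.000485). With the leading heavy constant gene required to hold at least 80% of heavy constant UMIs, the difference for Slc38a10 was 0.22 and was not called, and in high-ribosomal cells of both cycling states it was also 0.22 and not called (adjusted p up to 0.427 over the alternatives). Among the non-cycling cells with no such limit, 4 of the 6 genes tested were called between IgG and IgM, where 11.7% of all genes were, and 2 of 6 between IgG and IgA, where 8.63% were.

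Slc1a5 and Slc38a2 were not called between classes. Slc1a5 differed by 0.36 between IgA and IgM (95% interval 0.10 to 0.62, adjusted p = 0.0741) and by 0.17 between IgG and IgM (-0.06 to 0.41). Slc38a2 differed by 0.13 between IgA and IgM (-0.14 to 0.40) and by 0.05 between IgG and IgM (-0.20 to 0.29). The share of non-cycling cells with at least 10% ribosomal protein UMIs was 18.4% to 50.6% for IgM, 4.76% to 32.0% for IgA and 14% to 45.4% for IgG over the 5 libraries that held all 3 classes. Jchain, which links polymeric IgM and IgA, stood at 49929 to 72662 CPM in IgG and 88893 to 138072 CPM in IgA cells of these 5 libraries, and at 50619 to 117782 CPM in IgM cells of all 6 libraries. The 7 B cell markers summed in IgM and IgA cells to 169.5 and 45.9 CPM in female bone marrow, 165 and 91.5 CPM in male bone marrow, 166 and 65.5 CPM in female spleen, 184 and 65.9 CPM in male spleen, and 234 and 253 CPM in male thymus. They were lower in IgA than in IgM cells in 4 of the 5 libraries and in IgG cells stood at 130.3 to 282 CPM. The 8 macrophage markers summed in IgM, IgA and IgG cells to 179.96, 39.3 and 40.7 CPM in female bone marrow, 84.1, 65.3 and 53.9 CPM in male bone marrow, 329, 96.8 and 113 CPM in female spleen, 169.6, 308 and 257 CPM in male spleen, and 83.0, 25.3 and 58.1 CPM in male thymus. They were thus lower in IgA and IgG than in IgM cells in 4 of the 5 libraries and higher in male spleen. The part of either marker list in the class differences was not tested.

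**Figure D4:**
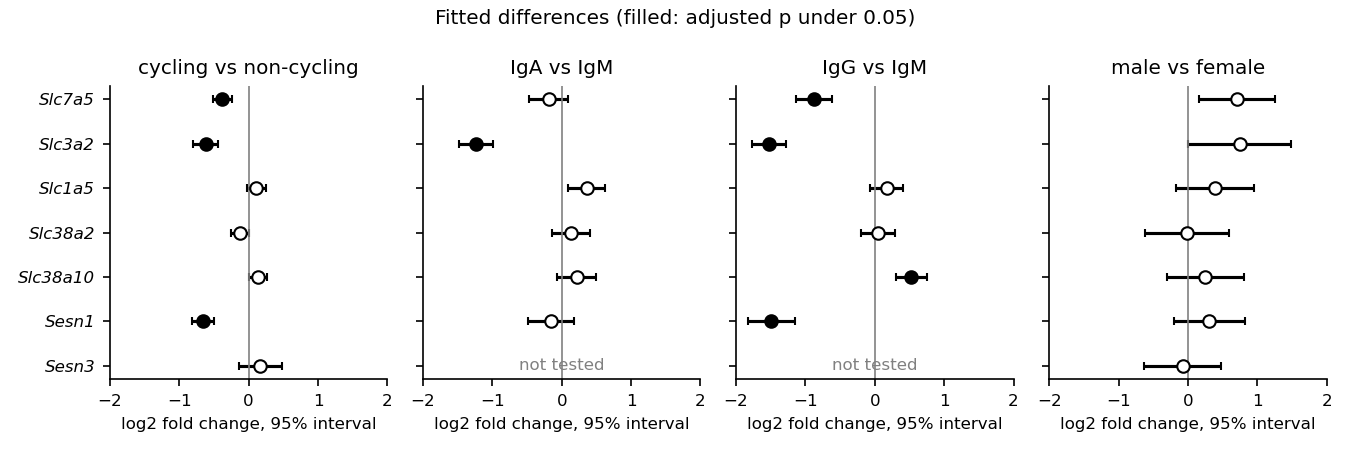
Fitted log2 fold change of each gene with its 95% interval for 4 comparisons over the 6 libraries, filled where the adjusted p is under 0.05. Slc3a2, Slc7a5 and Sesn1 are filled on the negative side for cycling and for IgG cells, and none is filled between the sexes.

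The IgG subclasses could be read apart where at least 20 non-cycling cells were found. In female spleen Slc3a2 stood at 757 CPM in Ighg1, 479 CPM in Ighg2b, 554 CPM in Ighg2c and 476 CPM in Ighg3 cells, all under the 1508 CPM of IgM cells. Sesn1 stood there at 18.03, 29.6, 27.1 and 29.8 CPM in the same order, from 3 to 24 UMIs, against 69.6 CPM in IgM cells. Slc38a10 gave 144, 121, 131 and 74.4 CPM, so that the Ighg3 cells, with 15 UMIs and an interval of 41.7 to 123 CPM, were not above the IgM value of 82.6 CPM. In male spleen Slc3a2 stood at 1174 CPM in Ighg2b and 996 CPM in Ighg2c cells, against 2661 CPM in IgM cells.

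The genes whose pattern over class and cycling state was most like that of a member were listed by Pearson correlation over 29 sums of library, class and state, each centred on its library. These sums share libraries and depth, and the values are a description. Slc7a5 was nearest to Asns (0.87), which makes asparagine, to Chac1 (0.80), which degrades glutathione, and to Sesn1 (0.80). Slc3a2 was nearest to Il13ra1 (0.89), Ggh (0.89) and Eif1 (0.86), and its values with Slc7a5 and Sesn1 were 0.72 and 0.67. Sesn1 was nearest to Kcnmb4os2 (0.88), Clic4 (0.87) and the survival factor Bcl2 (0.87). Slc38a10 was nearest to Zfr (0.82), Ggcx (0.78) and Mrpl39 (0.77), and its values with Slc3a2, Sesn1 and Slc7a5 were -0.51, -0.49 and -0.44. Slc1a5 was nearest to Mef2d (0.72), Slc38a2 to Rbck1 (0.77) and Sesn3 to H2-T22 (0.87).

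The ATF4 list holds genes activated by ATF4, the transcription factor of the amino acid response that also drives Slc7a5 and Slc3a2, and Atf4 itself. Its genes were more often called lower than higher in IgG and in cycling cells. Between IgG and IgM cells 11 of the 19 tested fell and 1 rose, with a list median of -0.69 against 0.01 over all genes, so that 63.2% of the list was called against 11.7% of all genes. Atf5, a related factor, was lower by a log2 difference of -2.18 (SE 0.20, adjusted p = 2.4e-12), Asns by -1.57 (SE 0.16, adjusted p = 4.74e-11) and the mitochondrial folate enzyme gene Mthfd2 by -1.06 (SE 0.17, adjusted p = 5.96e-06). Ddit4, an inhibitor of mTORC1, was higher by 0.96. Between IgA and IgM cells 7 of 19 fell and 1 rose (median -0.26 against -0.01, and 42.1% called against 8.95% of all genes), with Chac1 at -1.25, Ddit3 at -0.90, Cebpb at -0.90 and Ddit4 at 0.97. DESeq2 called only 4 of the list there against 8 by edgeR, while it called 600 of all genes against 666. Between IgG and IgA cells 2 of 19 fell, Asns (-1.50) and Atf5 (-1.35), a share of 10.5% that is near the 8.63% of all genes.

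Between cycling and non-cycling cells 12 of 24 genes of the ATF4 list fell and 2 rose, with a median of -0.27 against -0.02 over all genes and with 58.3% called against 23.9% of all genes. Trib3 (-0.87), Chac1 (-0.59) and Asns (-0.52) were lower, and Cth (1.08), which makes cysteine, and Psat1 (0.55), of serine synthesis, were higher. Atf4 itself was not called with cycling (0.0041). In the list of other amino acid transporters 3 of 20 rose and 5 fell with cycling, 40% against the same 23.9%. The large neutral amino acid transporter gene Slc43a1 was higher (0.75), and the neutral amino acid transporter gene Slc1a4 (-0.64) and the glycine transporter gene Slc6a9 (-0.59) were lower. Slc43a1 was also higher in IgG than in IgM cells (1.05) and lower in IgA than in IgM cells (-1.66). With Slc38a9, a lysosomal amino acid sensor (0.68), and Slc7a7 (-0.65), 2 of 12 transporters rose and 1 fell between IgG and IgM, and 1 rose and 2 fell between IgA and IgM. These are 25% of the list in each comparison, against 11.7% and 8.95% of all genes.

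The genes of the mTORC1 pathway were called at 14.8% between IgG and IgM cells, near the 11.7% of all genes, at 8.57% with cycling, below the 23.9% of all genes, and at 3.7% between IgA and IgM cells, below 8.95%. Between IgG and IgM cells 3 of 27 fell, namely Fnip1 (-0.72), the Rag GTPase gene Rraga (-0.60) and Rheb (-0.42), the GTPase that activates the complex, and 1 rose, the S6 kinase gene Rps6kb1 (0.64). With cycling 2 of 35 fell, Sesn2 (-0.47) and Rraga (-0.37), and 1 rose, Sec13 (0.26). Between IgA and IgM 1 of 27 fell, Rheb (-0.48), and DESeq2 called 0 of the list there. Among 21 tRNA synthetase genes 6 rose and 1 fell with cycling, led by Hars (0.33), Qars (0.31) and Rars (0.31), whereas 6 fell and 1 rose in IgG against IgM cells, led by Sars (-0.65), Aars (-0.63) and Gars (-0.54). The share called was 33.3% in each, against 23.9% of all genes with cycling and 11.7% between IgG and IgM. Between IgA and IgM cells 1 of the 21 fell, Dars (-0.60), or 4.76% against 8.95%. The list of FoxO and p53 targets also holds the factor genes Foxo1, Foxo3, Foxo4 and Trp53. Of its genes 2 of 19 rose and 4 fell with cycling, led by Klf2 (0.58) and Pik3ip1 (-0.69). This share of 31.6% is near the 23.9% of all genes. Klf2, a quiescence factor, was higher in IgA than in IgM cells (2.53, the 1 of 14 called, a share of 7.14% near the 8.95% of all genes). It was lower in male than in female libraries (-2.07, adjusted p = 6.43e-06 by edgeR, the 1 of 20 called, or 5% against 0.427% of all genes). Between IgG and IgA cells 3 of 14 genes of the list were lower in IgG (Klf2, Foxo1 and Trp53inp1), or 21.4% against 8.63% of all genes. Between IgG and IgM cells edgeR called 0 of the 14 genes of the list, against 11.7% of all genes. DESeq2 likewise called 0, and 2 had a p under 0.05 before adjustment.

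**Figure D5:**
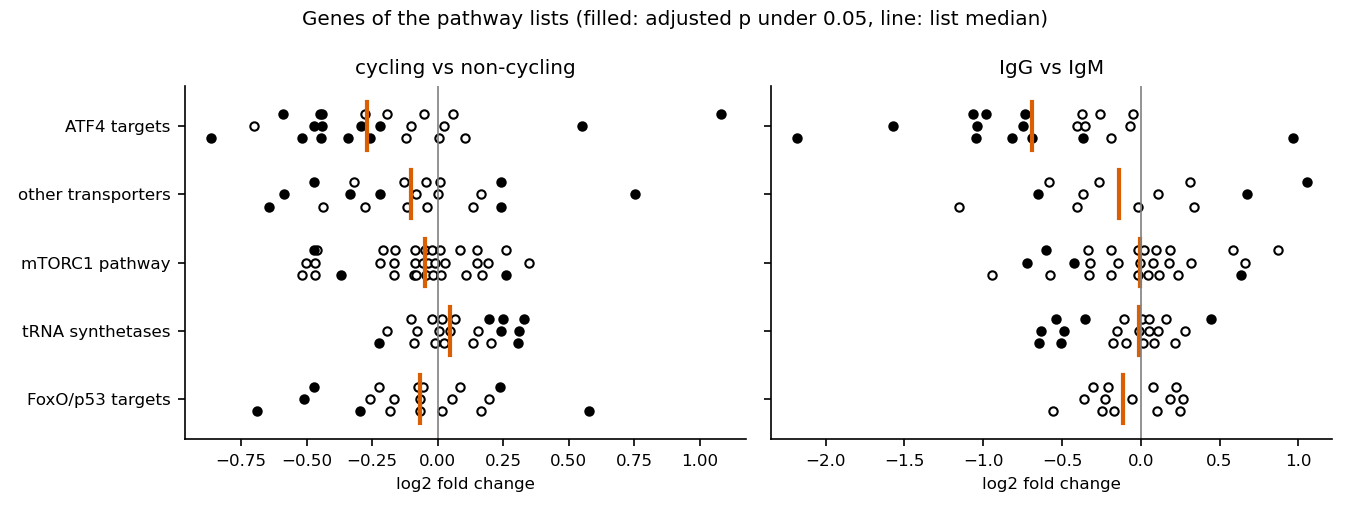
Log2 fold changes of the genes of 5 pathway lists between cycling and non-cycling cells (left) and between IgG and IgM cells (right), filled where the adjusted p is under 0.05, with the list median as an orange line. The ATF4 targets have the lowest medians, at -0.27 with cycling and -0.69 in IgG cells.

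Free RNA, released from other cells into the droplets, was estimated at 4.72% to 17.4% of the UMIs of kept cells. The estimate used light-chain V UMIs, and cells were also kept by the share of their leading light-chain V gene. It may therefore be too low, and the shares and the subtraction below depend on it. By this estimate free RNA accounted in expectation for 3.51% to 15.1% of Slc3a2 UMIs, 1.23% to 12.2% of Sesn1 UMIs and 4.98% to 18.6% of Sesn3 UMIs. Outside the filtered lists Slc3a2 stood at 464 to 1523 CPM, above the kept cells only in male thymus (1523 against 1479 CPM). With free RNA subtracted, and again without barcodes found in 2 or more libraries, the same number of the 7 genes was called as before in each comparison.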

How the data were processed

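UMI counts per gene and barcode were used as deposited, with no normalization by the authors. Cell Ranger 6.0.2 is named in the submitters' processing notes and, per the file headers, wrote the filtered matrices, and Cell Ranger 4 wrote the unfiltered ones. The builds mm10 and GRCm38 are named in the same notes. The 395 genes starting Igh, Igk or Igl were left out of depths, library sizes and tests. Counts were summed per library, per library and cycling state, or per library and class (at least 20 cells), and tested with edgeR 4.0.16 (R 4.3.3; filterByExpr, TMM, quasi-likelihood F-test, Benjamini-Hochberg over all genes at 0.05). Models held sex and tissue (6 sums, 2 residual degrees of freedom) or the library as a term (12 sums for cycling, 16 for class). The members, gene lists and tests were chosen with earlier results of these data known, so list counts are descriptions. The lists are ATF4 targets, other transporters, the mTORC1 pathway, tRNA synthetases and FoxO and p53 targets. The first and last of them also hold genes of the factors themselves. Some genes are in several lists and are counted in each. Sesn2 is in the ATF4, mTORC1 and FoxO and p53 lists, and Slc7a1 is in the ATF4 and transporter lists. Per list, comparison and direction, up to 3 called genes with the largest changes were named, and per member up to 3 genes nearest by Pearson correlation of log2(CPM + 10) among genes of at least 20 CPM. Intervals of levels are exact Poisson and cover counting error only. No doublet caller was run, and the requirement on the leading light-chain V gene and the removal of the 5% deepest barcodes as an alternative were used in its place. In a simulation, 200 genes were given a log2 change of 2. The share recovered was 91% for thymus versus bone marrow, with 6 false calls among 11073 genes. It was 100% for cycling with 6 among 10520, and 92% for IgA versus IgM with 9 among 6774. The largest fitted differences of the members in these comparisons were smaller, at 0.58 (Slc38a10), -0.66 (Sesn1) and -1.23 (Slc3a2). The simulation thus does not show how often changes of the sizes seen would be recovered. The VDJ libraries were not used here.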

Additional observations from a re-analysis of the deposited data

Results flagged for a closer look

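Within-library log2 ratios were screened for a library that stands apart from the rest of its group, in 28 sets of 5 or 6 libraries, a screen that chance meets in about 1 of 20 sets. Sesn1 fell further with cycling in male thymus (-1.50, from 21 cycling-cell UMIs) than in the other 5 libraries (-0.74 to -0.45). Slc38a10 rose further with cycling in female thymus (0.74, from 31 cycling-cell UMIs) than elsewhere (0.02 to 0.29). Slc38a2 was higher in the cycling cells of male bone marrow (0.096) and lower in those of the other 5 libraries (-0.16 to -0.08). Slc38a2 was lower in IgA than in IgM cells in male spleen (-1.02, from 20 IgA cells) and higher in the other 4 libraries (0.21 to 0.44). Slc38a10 and Slc38a2 were not called in these comparisons.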

How the results depend on the processing

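Each alternative was read by how many of the 7 genes it called. Male versus female went from 0 to 4 among cells with at least 10% ribosomal protein UMIs, to 2 among those under 10% and to 1 among non-cycling IgA cells (Slc7a5, 1.25), and thymus versus spleen from 0 to 1 among cells under 10%. The fits in IgA cells alone, here and for cycling, set no minimum of cells. Female thymus gave them 11 non-cycling IgA cells, with 1 Slc7a5 UMI, and 7 cycling ones. Male thymus gave 5 cycling IgA cells. Cycling went from 3 to 5 with at least 2 UMIs of Mki67 and Top2a, to 4 by DESeq2 (Slc38a2 added, -0.13) and in IgM cells, to 2 in thinned cells (Slc7a5 lost) and to 0 in IgA cells, where 17 genes were called in all and Slc3a2 (-0.74), Sesn1 (-1.03) and Slc7a5 (-1.02) stayed negative. IgA versus IgM went from 1 to 2 at 2000 UMIs, under 10% ribosomal protein UMIs and with cycling cells included, and ranged from 1 to 2 with 1 library left out (2 without male thymus, with Slc1a5 added). IgG versus IgM went from 4 to 3 with the 80% heavy constant limit and in high-ribosomal cells of both cycling states (Slc38a10 lost in each). IgG versus IgA went from 2 to 3 at 2000 UMIs (Slc3a2 added) and to 1 with an 80% light-chain V limit, an 80% heavy constant limit, under 10% ribosomal protein UMIs, and in high-ribosomal cells of both cycling states, where as with the light-chain limit the gene called was Slc3a2, and ranged from 1 to 2 with 1 library left out. No call reversed. In 121 cases a value changed sign without passing the threshold. The cause of these changes was not tested. For most alternatives the share of all genes called is not given. Whether the 7 genes moved more than all genes is thus not shown. Over all alternatives, genes called in all ran from 147 to 843 for IgA versus IgM and from 391 to 1091 for IgG versus IgM. They ran from 151 to 943 for IgG versus IgA and from 17 to 3543 for cycling. For male versus female they ran from 7 to 457 and for thymus versus spleen from 6 to 934. The number of all genes called also varied with 1 library left out. Thymus versus bone marrow gave 86 with all libraries and 16 to 353 with 1 left out, thymus versus spleen 71 and 33 to 934, spleen versus bone marrow 49 and 11 to 158 (DESeq2 3), male versus female 48 and 10 to 205 (DESeq2 7), IgG versus IgM 872 and 391 to 911, IgG versus IgA 642 and 261 to 651, IgA versus IgM 666 and 363 to 665, and cycling 2574 and 1586 to 2745. The interactions gave 0, 1 and 12 genes and 1 to 14, 5 to 15 and 10 to 33 with 1 library left out. For thymus versus bone marrow 59 genes were called higher and 27 lower, and by DESeq2 44 and 10. The class fit in cells with at least 10% ribosomal protein UMIs alone could not be fitted, as too few sums remained. The fits in cells under 10% ribosomal protein UMIs, without ribosomal protein genes, and of classes in high-ribosomal cells of both states were chosen after the data were seen. The cycling and class fits compared sums within a library and the sex fit held tissue as a term, and no further pairing by replicate number could be fitted, since the labels give none. Female thymus, with 107 cells, limits the thymus comparisons that use both sexes. The IgA and IgG values of thymus in the class fit come from male thymus only.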
